A study of Caenorhabditis elegans with 8 samples.

Results

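The 8 genes described here are dod-17, dod-19, dod-21, dod-22, dod-24, irg-4, irg-5 and irg-6 of Caenorhabditis elegans. They were chosen by symbol as immune genes with CUB-like domains and genes regulated by the transcription factor DAF-16. Earlier results of these data were known at the choice, so the shares of all genes printed beside their counts are descriptions and no test of the set. All 8 were found among the 47087 loci of the expression table through their WormBase gene IDs. The table held RNA sequencing of whole wild-type (N2) worms fed on OP50 bacteria, with 4 libraries of animals that had 12 h of light (8000 lux) in turn with 12 h of darkness (DL) and 4 of animals kept in constant darkness (NL), all at 20 °C. The labels give 40 h of culture and young adulthood for both groups, do not state the number of light cycles, and place 1 library of each group in each of 4 batches. Whether libraries of 1 group stem from separate cultures is not given, so every p-value here reflects library-to-library spread that may be technical. No pathogen is named in the labels.

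The dod genes take their name from being downstream of DAF-16, the FOXO factor that insulin signalling keeps out of the nucleus. The irg genes are named as infection response genes. Several of these genes, among them irg-4, irg-5 and dod-24, encode proteins with a CUB-like domain, are expressed mainly in the intestine, and are known to be induced by bacterial infection, in part through the p38 MAP kinase PMK-1 and its target factor ATF-7. Many dod genes with higher numbers, dod-17, dod-22 and dod-24 among them, are known as genes that are lower when DAF-16 is active, unlike DAF-16-activated genes such as sod-3.

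Depth, worked out from the spacing of low values, was 18628030 to 20394371 gene reads per library, and a single read on a 1 kb gene equalled 0.0463 to 0.0546 FPKM (fragments per kilobase of exon, scaled to library depth). Libraries differed within each group. Summed over 19 sperm markers, the level was 522 to 2069 FPKM in DL and 11.32 to 598 FPKM in NL; of the NL libraries NL 3 was highest and NL 4 lowest; limma called 0 of the 18 sperm markers tested, but all 18 were higher in DL at an unadjusted p under 0.05, with a median log2 change of 3.19. Summed over 9 transcripts of adults (yolk proteins and adult cuticle collagens), it was 11.12 to 421 FPKM in DL and 2.11 to 206 FPKM in NL. The highest values were in DL 2 and NL 3, and every other library held 12.9 FPKM or less. These markers thus do not show that all libraries were of the labelled young adult stage, and a difference in stage was not tested. Intestine markers were present in every library. The sum over 12 of them was 5814 to 10239 FPKM in DL and 8159 to 9377 FPKM in NL. Most of this sum was asp-1, and the 12 include the structural genes act-5 and ifb-2.

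Transcripts of 7 of the 8 genes averaged more in DL than in NL, and the differences of 6 of these were at least 2-fold on the log2(FPKM + 1) scale. In whole animals, more cells of a type and more transcript per cell cannot be told apart. None of the 7 that met the filter (an overall mean of 1 FPKM or more) was called: 0 had a limma adjusted p under 0.05 over the 14358 genes tested, of which 0.703% were called in either direction and 0.293% as higher in DL. Unadjusted, 6 of the 7 had a limma p under 0.05 and were higher in DL, as did 12.4% of all genes tested. The median log2 change of the 7 was 1.76, beside 0.030 over all genes tested. A log2 change of at least 1 was found for 6 of the 7 and for 8.96% of all genes. In each of the 4 batches the same 6 genes were higher in DL than in NL, a pattern of 13.3% of all genes. The eighth gene, irg-6, was below the filter and was not in this fit.

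**Figure D1:**
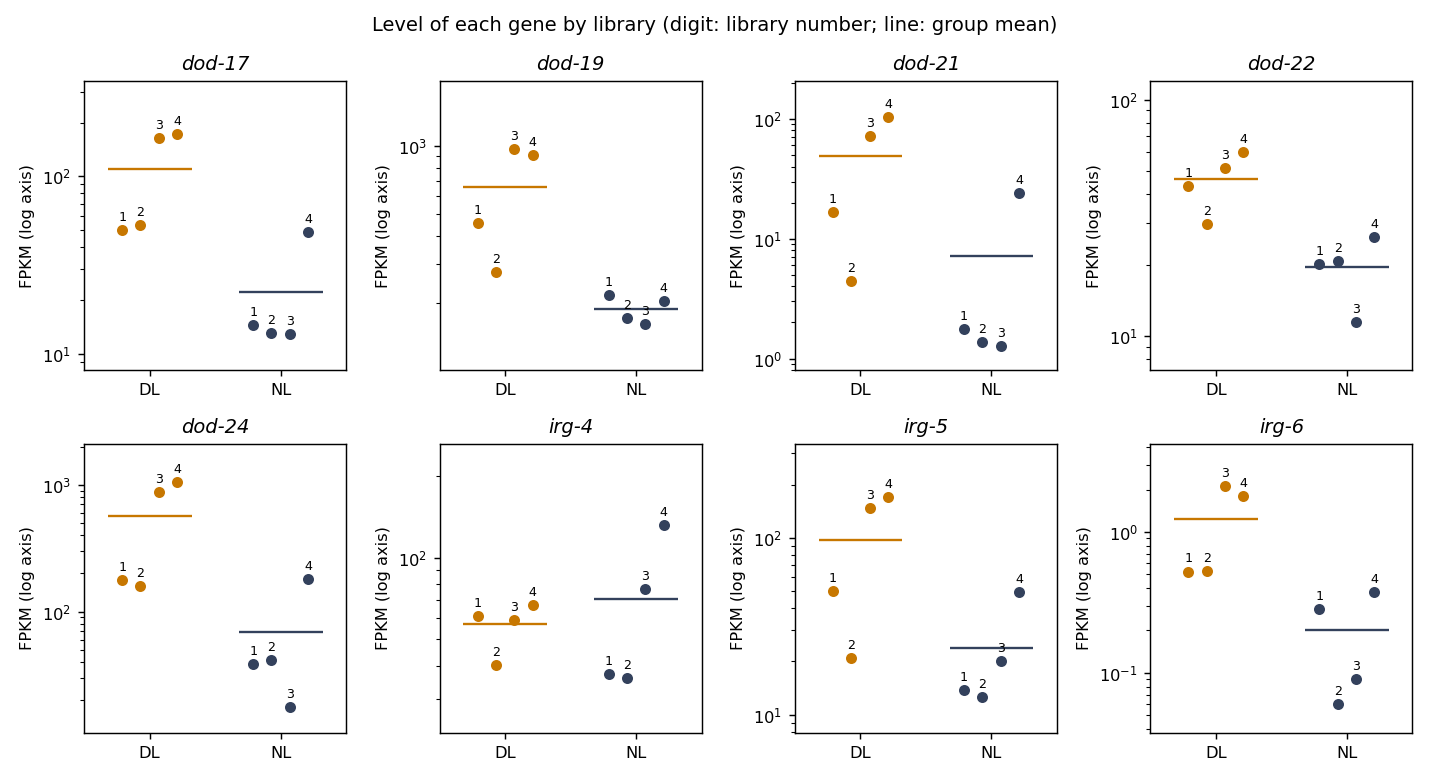
FPKM of each of the 8 genes (log axis) in the 4 DL and 4 NL libraries, with the library number above each point and the group mean as a line. In 7 panels DL 3 and DL 4 are the highest points, and NL 4 lies above NL 1, NL 2 and NL 3 for dod-17, dod-21, dod-22, dod-24, irg-4, irg-5 and irg-6.

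The gene dod-24 (WBGene00007875; WBcel235 chromosome IV:12940106-12941354, minus strand, 3 exons) encodes a CUB-like domain protein. Its level was 177.9, 159.3, 879 and 1055 FPKM in DL 1 to DL 4, against 38.7, 41.4, 17.7 and 181 FPKM in NL 1 to NL 4. The groups overlapped because NL 4 lay above DL 1 and DL 2, while DL 3 and DL 4 lay far above the other 6 libraries. The log2 change was 3.05 ± 0.82 (SE; 95% interval 1.20 to 4.89; limma adjusted p = 0.102). Among the 14358 genes tested it ranked 53 by log2 change and 637 by p, so a large difference came with a large spread. Its depth was not the limit, with 407 to 24188 reads per library.

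Close by lies dod-21 (WBGene00007873; IV:12936738-12937988, plus strand, 3 exons), another gene of the CUB-like group. It stood at 16.7, 4.46, 71.5 and 103 FPKM in DL 1 to DL 4, against 1.77, 1.37, 1.28 and 24.2 FPKM in NL 1 to NL 4. NL 4 exceeded DL 1 and DL 2, so the groups overlapped, and the highest library was 80.8 times the lowest, the widest range of the 8 genes. Its log2 change was 2.73 ± 1.05 (95% interval 0.36 to 5.10; limma adjusted p = 0.18). NL 1, NL 2 and NL 3 held 38, 31 and 29 reads of this gene, and the other libraries 103 to 2336.

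For dod-17 (WBGene00010745; IV:12976303-12978343, plus strand, 8 exons), a further gene of the CUB-like group, the values were 49.8, 53.3, 165 and 172 FPKM in DL 1 to DL 4, against 14.4, 13.1, 12.9 and 48.4 FPKM in NL 1 to NL 4. The groups did not overlap, although NL 4 lay just under DL 1. In the fit this was a log2 change of 2.26 ± 0.54 (95% interval 1.03 to 3.49; limma adjusted p = 0.0933). Without NL 4 it was 2.71 and passed (limma adjusted p = 0.0364), in a fit that called 0.425% of all genes as higher. With any other library left out it did not pass, and the limma adjusted p reached 0.265 without NL 1.

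The gene dod-22 (WBGene00010125; IV:12965374-12967392, plus strand, 2 transcripts of 7 and 8 exons) differed less between libraries. Its level was 43.1, 29.8, 51.4 and 59.95 FPKM in DL 1 to DL 4, against 20.1, 20.8, 11.5 and 26.3 FPKM in NL 1 to NL 4. All DL libraries lay above all NL libraries. The log2 change was 1.20 ± 0.28 (95% interval 0.57 to 1.83; limma adjusted p = 0.0893, the lowest adjusted p of the 7 genes). Without NL 3, its lowest library, the log2 change was 0.97 and passed (limma adjusted p = 0.0375), in a fit that called 8.18% of all genes as higher. With any other library left out it did not pass, and the limma adjusted p reached 0.237 without NL 1.

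The highest level of the 8 genes in both groups was that of dod-19 (WBGene00022644; V:411782-414759, minus strand, 3 transcripts of 1 to 6 exons). It stood at 455, 276, 971 and 916 FPKM in DL 1 to DL 4, against 218, 172, 162 and 206 FPKM in NL 1 to NL 4. The groups did not overlap, and the NL libraries of this gene were close together, the highest being 1.35 times the lowest. The fitted log2 change was 1.61 ± 0.38 (95% interval 0.76 to 2.47; limma adjusted p = 0.0901). Without DL 2, its lowest DL library, the log2 change was 1.97 and passed (limma adjusted p = 0.0253), in a fit that called 0.592% of all genes as higher. With any other library left out it did not pass, and the limma adjusted p reached 0.263 without NL 2.

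Of the infection response genes, irg-5 (WBGene00009429; V:13737010-13738474, minus strand, 7 exons), a PMK-1-dependent gene of the intestine, followed the dod genes. Its level was 50.2, 20.8, 147 and 170.1 FPKM in DL 1 to DL 4, against 13.8, 12.63, 20.1 and 49.3 FPKM in NL 1 to NL 4. DL 2 lay beside NL 3 and below NL 4, so the groups overlapped. The log2 change was 1.76 ± 0.67 (95% interval 0.24 to 3.28; limma adjusted p = 0.178).

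By contrast irg-4 (WBGene00008584; IV:12435833-12438236, plus strand, 7 exons), also known as a PMK-1-dependent gene, had its 2 highest values in NL. It stood at 61, 40.3, 59 and 67 FPKM in DL 1 to DL 4, against 37.1, 36.1, 76.7 and 132 FPKM in NL 1 to NL 4. The DL values lay inside the NL range. The log2 change was -0.12 ± 0.39, with a 95% interval of -1.01 to 0.77 (limma adjusted p = 0.896). A difference of up to about 2-fold downward thus lies within the interval, as does a rise of up to 0.77 in log2. The sign was positive without NL 4 (0.25) and without DL 2 (0.034).

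The gene irg-6 (WBGene00007864; IV:12912722-12914969, minus strand, 2 transcripts of 8 and 9 exons) was near the limit of detection. It held 19, 18, 65 and 60 reads in DL 1 to DL 4, against 9, 2, 3 and 12 reads in NL 1 to NL 4. In FPKM these were 0.524, 0.529, 2.11 and 1.80 in DL and 0.284, 0.060, 0.0899 and 0.373 in NL, and the groups did not overlap. An exact permutation test of the libraries (two-sided, 70 splits) gave p = 0.0286, the smallest p that 4 against 4 libraries allow. In the fit without a filter its log2 change was 0.83 ± 0.26 (limma adjusted p = 0.200), on a scale where adding 1 to values this low shrinks the difference.

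**Figure D2:**
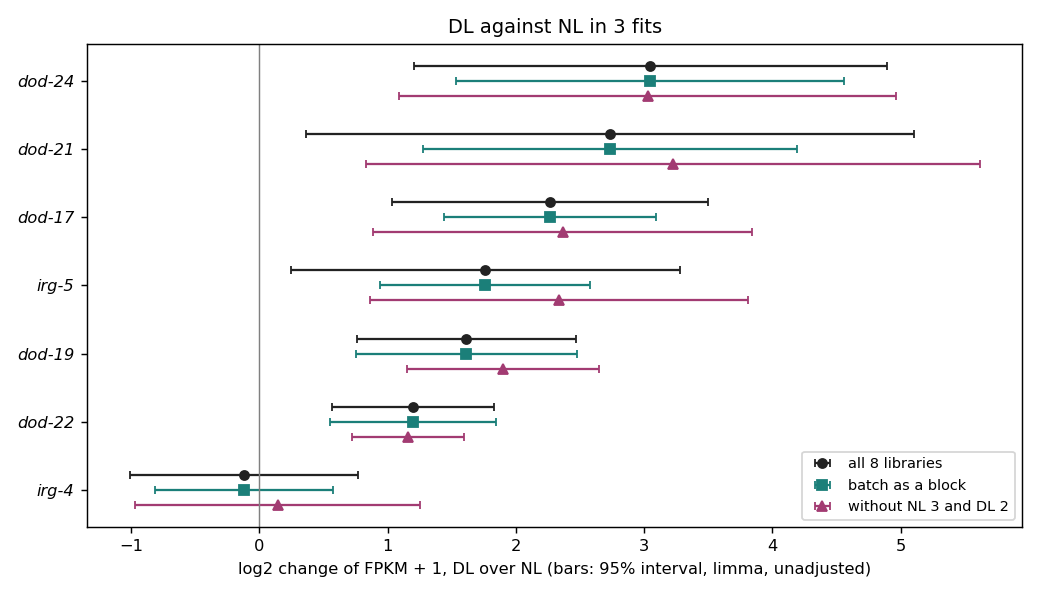
Log2 change of FPKM + 1 (DL over NL, horizontal axis) of the 7 tested genes, with unadjusted 95% intervals from limma, in the fit of all 8 libraries, with the batch as a block, and without NL 3 and DL 2. The intervals of 6 genes lie above 0 in all 3 fits, and those of irg-4 span 0.

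Groups that did not overlap, with DL higher, were found for 3 of the 7 tested genes (dod-17, dod-19 and dod-22) and for 4.44% of all genes. DL 3 and DL 4 were the 2 highest of all libraries for 6 of the 7, beside 9.13% of all genes, and NL 1, NL 2 and NL 3 were the 3 lowest for 5 of the 7, beside 2.99% of all genes. Without both DL 3 and DL 4 the median log2 change of the 7 was 0.91, and the largest was 1.79, for dod-24. DL 3 and DL 4 were also the most alike DL libraries over all genes, with a chi-square of 23.6 per gene against 79.6 to 114 for the other DL pairs, and NL 1 and NL 2 the most alike NL libraries (8.04 against 58.6 to 115.3). With each of these pairs averaged to 1 library, the median log2 change was 1.39 and 0 of the 7 passed, as did 0 of all genes.

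With the labelled batch as a block, the standard errors of all 7 genes were smaller (0.34 against 0.54 for dod-17, 0.33 against 0.67 for irg-5), but 0 of the 7 passed. The limma adjusted p was 0.0914 for dod-17 and 0.139 to 0.865 for the other 6, and 0.174% of all genes passed in that fit. Within batches, the DL minus NL difference was largest in batch 3 for the 6 genes named above and for irg-6, at 5.56 for dod-24 and 4.99 for dod-21. It was smallest in batch 2 for dod-19, dod-21, dod-22, dod-24 and irg-5, and in batch 1 for dod-17 and irg-6. The differences of irg-4 were 0.70, 0.15, -0.37 and -0.96 in batches 1 to 4.

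**Figure D3:**
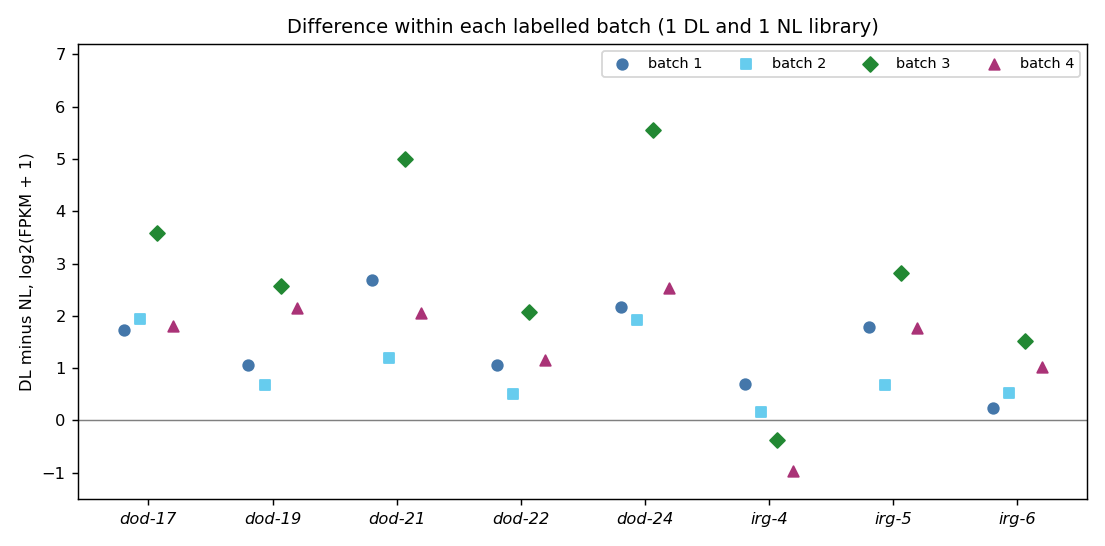
Difference in log2(FPKM + 1) between the DL and the NL library of each of the 4 labelled batches (vertical axis) for each of the 8 genes. All points lie above 0 except those of irg-4 in batches 3 and 4, and batch 3 gives the highest point for every gene other than irg-4.

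Sperm transcripts were also higher in DL. Of 13 oocyte and eggshell markers, 12 had a positive log2 change, with a median of 1.14. Limma called 0 of them, and 5 were higher in DL at an unadjusted limma p under 0.05 (12.4% of all genes). The adult sum was 11.9, 421, 11.1 and 12.9 FPKM in DL 1 to DL 4. In NL 1 to NL 4 it was 10.1, 10.6, 206 and 2.11 FPKM, so its higher mean in DL rested on DL 2. Of the 8 adult markers tested, 7 had a positive log2 change and 0 had an unadjusted limma p under 0.05. The part of sperm, oocyte and adult transcripts in the differences was not tested. NL 3, whose sperm and adult sums lay within the DL range, had the lowest level of all 8 libraries for dod-17, dod-19, dod-21, dod-22 and dod-24. DL 2, highest in both sums, had the lowest DL level of dod-19, dod-21, dod-22, dod-24, irg-4 and irg-5. NL 4, lowest in both, had the highest NL level of 7 genes. Without NL 3 and DL 2, a choice made after the data were seen, dod-19 (log2 change 1.90, limma adjusted p = 0.0109) and dod-22 (1.16, limma adjusted p = 0.00909) passed, 2 of the 7 genes, beside 10.4% of all genes in either direction and 8.53% as higher in DL. The same fit called 17 of the 18 sperm markers, 6 of 13 oocyte and eggshell markers and 1 of 8 adult markers as higher in DL. In that fit the limma adjusted p was 0.0594 to 0.107 for dod-17, dod-21, dod-24 and irg-5.

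Summed, the 8 genes stood at 854, 585, 2345 and 2545 FPKM in DL 1 to DL 4, against 344, 298, 302 and 667 FPKM in NL 1 to NL 4. Set against the sum of the intestine markers, this was 0.147, 0.0871, 0.251 and 0.249 in DL, against 0.0367, 0.0329, 0.0370 and 0.0785 in NL. The ratio was higher in every DL library than in every NL library, the closest being DL 2 and NL 4. The summed levels themselves overlapped, with DL 2 below NL 4, so the separation depends on the divisor. The gene asp-1 made up most of that marker sum, with 3994 FPKM in DL 1 and 7050 FPKM in NL 1. The ratio is therefore a description and no correction for intestine content. Of the 12 intestine markers limma called 0, and their median log2 change was -0.15. At an unadjusted p under 0.05, 1 was higher in DL (pgp-1, log2 change 0.86, groups not overlapping) and 3 were lower (ges-1 at -0.67, ifp-1 at -0.56 and ifb-2 at -0.55). The gene elt-2, for the intestinal GATA factor, stood at 17.2 ± 2.56 FPKM in DL and 17.4 ± 3.63 FPKM in NL (SD, n = 4 each).

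In order of mean level per length, the genes in DL ran dod-19 (654 ± 342 FPKM), dod-24 (568 ± 466), dod-17 (110.1 ± 67.7), irg-5 (97 ± 72.7), irg-4 (56.8 ± 11.5), dod-21 (49 ± 46.5), dod-22 (46 ± 12.8) and irg-6 (1.24 ± 0.837; SD, n = 4 each). Of these neighbours, dod-24 and dod-17 differed by less than the SD of dod-24, and only dod-22 and irg-6 differed by more than both SDs. The order in NL was dod-19 (189.5 ± 26.9 FPKM), irg-4 (70.4 ± 44.9), dod-24 (69.7 ± 75), irg-5 (23.9 ± 17.2), dod-17 (22.2 ± 17.5), dod-22 (19.7 ± 6.13), dod-21 (7.14 ± 11.3) and irg-6 (0.202 ± 0.151). There dod-19 and irg-4, and dod-22 and dod-21, were apart by more than either SD, and the other neighbours in the order were not.

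The genes dod-17, dod-21, dod-22, dod-24 and irg-6 share a stretch of 65.6 kb on chromosome IV (12912722-12978343 in WBcel235). It holds 21 protein-coding genes, of which 16 are not among the 8. Of those 16, 10 were tested and 0 were called; 7 had an unadjusted limma p under 0.05 with higher levels in DL, and 4 had a log2 change of at least 1 (0.703%, 12.4% and 8.96% of all genes). The gene C32H11.4 stood at 36.3, 32.8, 254 and 268 FPKM in DL 1 to DL 4, against 5.73, 4.81, 6.59 and 67.1 FPKM in NL 1 to NL 4 (log2 change 3.01 ± 0.96, limma adjusted p = 0.123). Beside dod-21, cld-1 stood at 12.8, 4.21, 56.9 and 79.2 FPKM in DL, against 0.645, 0.701, 0.306 and 16.17 FPKM in NL (3.09 ± 1.03, limma adjusted p = 0.135). Both had, like dod-21 and dod-24, DL 3 and DL 4 highest and NL 4 far above the other NL libraries.

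Beside dod-17, F55G11.4 stood at 322, 64.7, 262 and 249 FPKM in DL, against 58.1, 45.6, 52.8 and 143 FPKM in NL, with DL 1 highest (log2 change 1.51 ± 0.53, limma adjusted p = 0.15). The log2 changes of srlf-4, srlf-5 and F55G11.1 were -0.050, -0.17 and -0.20. Next to dod-22, F55G11.2 averaged 41.3 ± 29 FPKM in DL and 6.16 ± 7.62 FPKM in NL (log2 change 2.78 ± 0.73, limma adjusted p = 0.1) and F55G11.8 averaged 112.8 ± 30 FPKM in DL and 67.7 ± 25.3 FPKM in NL (0.75 ± 0.27, limma adjusted p = 0.151). How reads that match several genes were counted is not stated, so values of neighbours that are similar in sequence are uncertain. No annotated gene overlaps any of the 8.

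**Figure D4:**
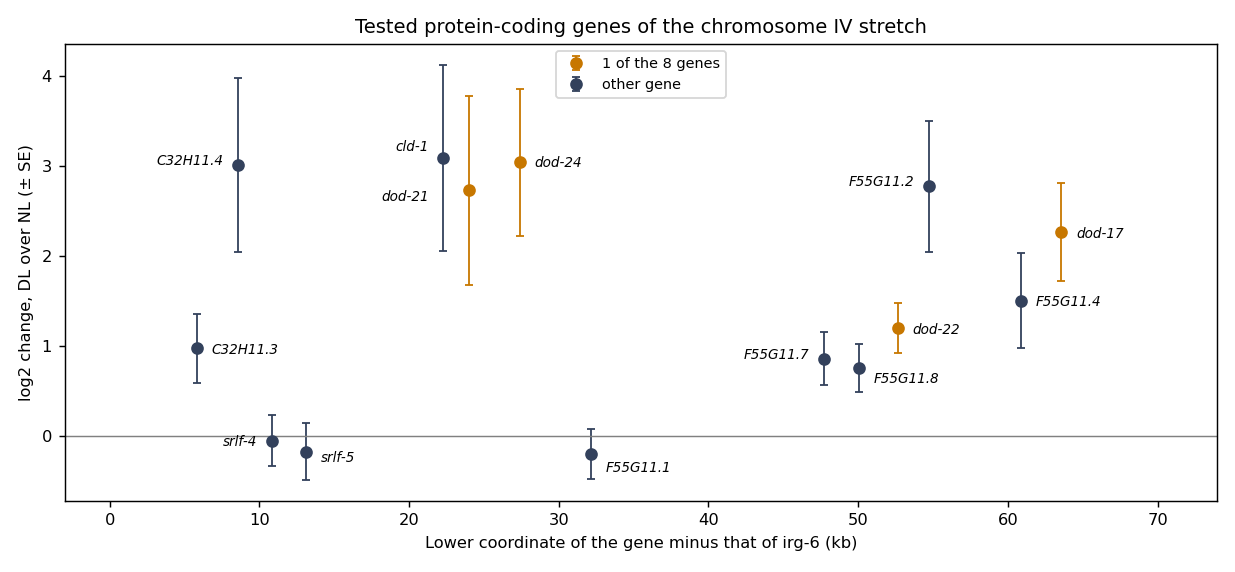
Log2 change (DL over NL, ± SE from limma) of the tested protein-coding genes of the chromosome IV stretch against the distance of each gene's lower coordinate from that of irg-6 in kb, with 4 of the 8 genes in orange and 10 other genes in blue. Of the 14 points, 11 lie above 0, and those of srlf-4, srlf-5 and F55G11.1 lie just below it.

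Over the 6 sequenced clones that hold the 8 genes, 79 other loci are in the table, 44 of them protein-coding, and 32 were tested. Limma called 0 of the 32. An unadjusted p under 0.05 with higher levels in DL was found for 14 (12.4% of all genes). A positive log2 change was found for 24 (53.5% of all genes), with a median of 0.50 (0.030 over all genes). The 32 include the 10 tested genes of the chromosome IV stretch given above, and the 14 include 7 of those. Adjacent to dod-19, irg-8, a further infection response gene, stood at 633, 404, 695 and 692 FPKM in DL 1 to DL 4, against 178.6, 143.9, 244 and 332 FPKM in NL 1 to NL 4. Its groups did not overlap (log2 change 1.47 ± 0.29, limma adjusted p = 0.0569). On the same clone as dod-19, the lipase gene lipl-5 averaged 496 ± 121 FPKM in DL and 533 ± 66.6 FPKM in NL, and on that of irg-4 the collagen gene col-130 averaged 203 ± 96.7 and 178.7 ± 42.7 FPKM in DL and NL.

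The other neighbours of the 8 genes varied. Beside irg-6, K08D8.5 averaged 35.4 ± 19.1 FPKM in DL and 15.1 ± 4.57 FPKM in NL (log2 change 1.07 ± 0.39, limma adjusted p = 0.159). On either side of irg-5, F35E12.6 and F35E12.9 had log2 changes of 0.095 and -0.096. Beside dod-17, K10D11.2 had one of 0.064, and beside irg-4 the C-type lectin gene clec-184 had one of -0.78 (limma adjusted p = 0.149).

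Over the 8 libraries, 6 of the 7 tested genes varied together: Pearson's r between each of them and the mean of the other 6 standardised profiles was 0.87 to 0.99, and 0.28 for irg-4. These values are a description, since the libraries share 2 groups and 2 pairs of alike libraries. Of 10006 other tested genes that averaged 5 FPKM or more, the 5 most like the mean profile of the 7 were cld-1 (r = 0.997), T05F1.9 (0.990), C32H11.4 (0.986), apy-1 (0.977), which encodes an apyrase, and W06H8.2 (0.974). Of these, cld-1 and C32H11.4 lie in the chromosome IV stretch. The level of apy-1 spanned a narrow range, 173 to 228 FPKM in DL and 150.4 to 187.3 FPKM in NL (log2 change 0.28 ± 0.15, limma adjusted p = 0.325).

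Upstream regulators were described from lists. Of 16 genes of the p38 MAP kinase pathway and other immune regulators limma called 0, with a median log2 change of -0.14, and 3 were lower at an unadjusted p under 0.05 (20.6% of all genes in either direction). The kinase gene pmk-1 stood at 17.8 ± 3 FPKM in DL and 21.9 ± 1.48 FPKM in NL (log2 change -0.29 ± 0.14, limma adjusted p = 0.296), and atf-7, the factor that acts below it, at 63 ± 2.5 and 72.5 ± 5.33 FPKM in DL and NL (-0.20 ± 0.11, limma adjusted p = 0.37). The gene zip-2, for a bZIP factor, was at 419.8 ± 104 FPKM in DL and 339.9 ± 57.4 FPKM in NL, and skn-1, for the worm Nrf factor, at 62.4 ± 7.28 FPKM in DL and 70.4 ± 7.05 FPKM in NL. Transcript levels do not report the activity of a kinase or factor.

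Of 11 genes of insulin signalling to DAF-16 and PQM-1, limma called 0, with 5 at an unadjusted p under 0.05 (4 lower and 1 higher in DL; 20.6% of all genes in either direction) and a median log2 change of -0.20. The level of pqm-1, a zinc finger factor that acts on many genes oppositely to DAF-16, was 43.1 ± 11.9 FPKM in DL and 48.3 ± 16.1 FPKM in NL (limma adjusted p = 0.811). That of daf-16 was 36.4 ± 4.36 FPKM in DL and 51.7 ± 3.17 FPKM in NL (log2 change -0.50 ± 0.13, limma adjusted p = 0.0991). The kinase gene akt-1 stood at 40.4 ± 12.3 FPKM in DL and 69.2 ± 19.7 FPKM in NL.

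By log2 change over all libraries, most genes known to be activated by DAF-16 stood on the other side of 0 from most of the 8. Of 16 listed, 14 were tested, and 2 were called lower in DL, against 0.411% of all genes. A log2 change below 0 was found for 13 (median -0.71), as for 46.5% of all genes. Summed over the 15 found, the level was 1868 to 2072 FPKM in DL. In NL 1 to NL 4 the sum was 4037, 4475, 2065 and 1840 FPKM. The lower sum in DL thus rested on NL 1 and NL 2, the alike pair. Of the 14, sod-3, ftn-1, dod-6 and nnt-1 were lower in DL in all 4 batches. In batches 3 and 4, mtl-1, ctl-1, ctl-2 and sip-1 were higher in DL. So were hsp-16.2 (by 0.21 in log2) and hsp-16.41 (0.047) in batch 3. In batch 4, dod-3 (0.44), lea-1 (0.25), hsp-12.6 (0.23) and icl-1 (0.0027) were also higher in DL. The direction of these genes thus varied between batches. The superoxide dismutase gene sod-3 fell to 28.9, 20.4, 15.2 and 14.6 FPKM in DL 1 to DL 4, against 110.3, 100.4, 134 and 57 FPKM in NL 1 to NL 4 (log2 change -2.27 ± 0.29, limma adjusted p = 0.0155); its ends overlap genes of the other strand, whose reads cannot be told apart here. For the ferritin gene ftn-1 the values were 7.18, 11.73, 4.6 and 5.33 FPKM in DL, against 72.5, 75.7, 87.6 and 26.7 FPKM in NL, and it fell too (-2.97 ± 0.39, limma adjusted p = 0.0165). Both calls were lost without DL 3, DL 4, NL 1 or NL 2 (limma adjusted p = 0.0704 to 0.0888) and with the alike pairs averaged (0.262 for sod-3, 0.263 for ftn-1), and that of ftn-1 also without DL 1 (0.0538). NL 4, the NL library with the highest level of 7 of the 8 genes, had the lowest NL level of both, and NL 3 the highest. For irg-4, irg-5 and irg-6, NL 3 was not the lowest NL library. A link between these levels was not tested. The glyoxylate cycle gene icl-1 was at 574 ± 66 FPKM in DL and 1268 ± 789 FPKM in NL and the small heat shock protein gene sip-1 at 495 ± 193.5 and 386 ± 173.8 FPKM in DL and NL, with neither called. Of 5 other dod genes 4 were tested and 0 called: dod-3 had 15.9 ± 4.93 FPKM in DL and 89 ± 78.9 FPKM in NL, dod-6 had 291 ± 60.5 FPKM in DL and 405 ± 32.2 FPKM in NL, and dod-18 had 11.45 ± 2 FPKM in DL and 12.62 ± 1.84 FPKM in NL. The remaining tested gene, dod-20, had 2.44 ± 1.53 FPKM in DL and 1.39 ± 0.545 FPKM in NL. Its log2 change was 0.41 ± 0.39 (limma adjusted p = 0.597). Both dod-3 and dod-6 are also among the 16.

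Of 15 other infection response genes limma called 0, with 9 positive and 6 negative log2 changes and a median of 0.23. At an unadjusted p under 0.05 there were 5, of which 4 were higher in DL (12.4% of all genes). The fifth, spp-1, was lower, at 69.7 ± 23.3 FPKM in DL and 113.5 ± 16.5 FPKM in NL, without overlap of the groups. Its log2 change was -0.76 ± 0.27 (limma adjusted p = 0.148). The lysozyme gene lys-2 stood at 950.2, 858, 1213 and 1350 FPKM in DL 1 to DL 4, against 313, 261, 450.2 and 596 FPKM in NL 1 to NL 4 (log2 change 1.48 ± 0.28, limma adjusted p = 0.0541). Another lysozyme gene, lys-1, averaged 1667 ± 421 FPKM in DL and 927 ± 128 FPKM in NL (0.82 ± 0.23, limma adjusted p = 0.105), and lys-8 averaged 663 ± 91.9 FPKM in DL and 715 ± 108 FPKM in NL. Named after its values were seen, irg-2 stood at 3.78, 1.74, 4.32 and 4.04 FPKM in DL, against 0.820, 0.910, 0.519 and 0.764 FPKM in NL (1.31 ± 0.25, limma adjusted p = 0.0569), with no overlap of the groups.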

How the data were processed

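The 8 libraries were made from poly(A)-selected RNA with a kit that does not mark strand, per the labels' protocols. The authors deposited 1 table of FPKM values, 1 column per library, per the file headers. The tools named are HISAT2 and HTSeq and the build is WBcel235, per the submitters' processing notes; their versions and settings, the annotation and the handling of reads with several matches are not stated. Symbols, exons and coordinates came from the annotation of WBcel235 (Ensembl release 115), which matched 46924 IDs. With its exon lengths, 99.55% of 22985 genes gave whole reads in all libraries within 0.05 read; these reads describe depth only.

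DL was compared with NL on log2(FPKM + 1) with limma 3.58.1 (R 4.3.3; empirical Bayes with an intensity trend, two-sided, Benjamini-Hochberg over the 14358 genes that averaged 1 FPKM or more, threshold 0.05). The step was tested on simulated data with independent libraries. That setting lacks the alike pairs found here, so it does not show how often the fit errs with such pairs. Libraries of 1 replicate number carry the same batch label, which pairs them; deviations from the group means correlated at -0.007, -0.188, -0.318 and 0.190 within the 4 batches, and the fit without the block is the main one. The 8 genes and all lists were chosen with earlier results of these data known. Genes named besides the 8 are those of each list that passed (up to 5) and up to 3 more by mean FPKM. Also named are 5 regulators, adjacent genes and the 5 most alike in profile. Named after their values were seen were F55G11.1, srlf-4, srlf-5, irg-2, spp-1, pgp-1, ges-1, ifp-1, ifb-2, asp-1, mtl-1, ctl-1, ctl-2, nnt-1, hsp-16.2, hsp-16.41, hsp-12.6, lea-1 and dod-20. The reference tables give no protein domains, so other genes of the 6 clones stood in for a list of CUB-like genes. Alternatives covered the pseudocount, filter, scaling, batch block, trend, weights and libraries left out. Other tools were Python 3.11.15, pandas 2.3.3, numpy 2.4.6, scipy 1.17.1 and matplotlib 3.10.9.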

Additional observations from a re-analysis of the deposited data

Results flagged for a closer look

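NL 4 stood far above the other NL libraries in 3 of the 8 genes, by a gap that, as a share of the range of the group, passed the 95% critical value of Dixon's test for 4 samples. It held 48.4 FPKM of dod-17, 24.2 FPKM of dod-21 and 181 FPKM of dod-24. The gaps were 0.957, 0.979 and 0.855 of the range, on FPKM and not on log2 values. On log2(FPKM + 1), dod-24 stood at 5.31, 5.40 and 4.22 in NL 1 to NL 3 and 7.51 in NL 4, a gap of a smaller share. Chance alone sets apart about 5% of such groups where values are normally distributed, which FPKM values need not be. In all, 16 groups were checked, whose genes vary together, so the 3 are not separate events.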

How the results depend on the processing

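Over 21 alternatives, the log2 changes of dod-17, dod-19, dod-21, dod-22, dod-24 and irg-5 kept their direction, with ranges of 1.42 to 3.14, 0.91 to 2.01, 1.16 to 4.42, 0.89 to 1.39, 1.79 to 4.07 and 0.64 to 2.99, and limma adjusted p from 0.000617 to 0.614. That of irg-4 turned positive with library weights (0.59), without DL 2 (0.034), without NL 4 (0.25) and without NL 3 and DL 2 (0.14), and ran from -0.37 to 0.25 with 1 library left out. The number of the 8 genes that passed was 0 in the fit as reported, 1 after quantile normalization (dod-19), 6 with library weights, 2 without NL 3 and DL 2, and 0 to 1 with 1 library left out. Library weights gave NL 1 and NL 2 a weight of 3.48 and 3.34 and the other libraries 0.323 to 2.46, and a median log2 change of 2.99 against 1.76. Over all genes the count of calls was 101, and 33 with no filter, 216 after quantile normalization, 25 with the batch as a block, 5189 with library weights, 1493 without NL 3 and DL 2, 0 without DL 3 and DL 4, 0 with the alike pairs averaged, and 9 to 1561 with 1 library left out. The split of higher and lower calls was 42 and 59, against 67 and 149 after quantile normalization, 44 and 106 after centring on the median gene and 40 and 31 after rescaling to the same sum. Among the genes of the same clones the count was 0, and 1 with a mean of at least 5 FPKM, 1 after quantile normalization, 18 with library weights, 5 without NL 3 and DL 2 and 0 to 4 with 1 library left out. Among the pathway lists it was 2, and 33 with library weights, 6 without NL 3 and DL 2, 0 without DL 3 and DL 4, 0 with the alike pairs averaged, and 0 to 7 with 1 library left out. The block changed no call among the 8 genes and the lists. Causes were not tested. Depth limits irg-6 only, at 2 to 65 reads per library.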
